A study of Caenorhabditis elegans with 16 samples.

Results

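Messenger RNA was compared between *fbxa-215* mutant and wild-type embryos of *Caenorhabditis elegans* whose parents were grown at 25 °C. The deposited table held 21882 genes, of which 11945 passed the count filter and were tested. The gene lists were chosen with earlier results of these data known, and some genes and groups after their values were seen. The mutant strain SX3678 carries *fbxa-215(syb4404)* IV, a single CRISPR allele that was outcrossed to N2, and the wild type was N2. Each strain was measured in 4 libraries, 8 of the 16 in the series. Embryos of mixed stages were released by bleaching gravid adults 47 h after plating in both strains, and the other 8 libraries came from the same strains at 20 °C, bleached after 56 h. The study calls its libraries biological replicates, but the labels do not say that those of a group came from separate cultures, and p-values measure the spread between libraries. The question was which tissues, stages and gene families hold the genes that differ at 25 °C once the mutated gene itself is set aside.

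F-box proteins bind a SKP1-like adaptor (an SKR protein in the worm) on a cullin scaffold and bring substrates to this SCF ubiquitin ligase, which marks them for the proteasome. The worm genome holds very large F-box families, and *fbxa-215* encodes an F-box joined to a helix-turn-helix domain related to those of transposases. The early embryo runs on RNAs that the mother loads into the oocyte. These RNAs are cleared as zygotic genes come on, and genes of muscle, neurons, pharynx and cuticle follow as cells differentiate, so RNA of a mixed-stage sample also depends on which stages it holds.

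The mutated gene was examined first. *fbxa-215* (WBGene00012879, IV, 13665364 to 13666909, WBcel235) was measured at 172.3, 161.8, 153 and 172.4 CPM (counts after scaling by library size) in the wild-type libraries, a mean of 164.9 ± 9.37 CPM (SD, n = 4). It had 0 counts in all 4 mutant libraries, so it was at least 723-fold lower against a floor of 3 counts per library. The groups did not overlap, and an exact permutation test of both sides gave p = 0.0286, as low as this design can go. Total counts ranged from 13369185 to 15659770 per library and between 11716 and 12151 genes reached 10 counts. Markers of the parents were low: vitellogenins, the yolk proteins of the adult, and the major sperm proteins each summed to under 7 CPM in every library.

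Few genes changed by a large fold and many by a small one. With *fbxa-215* set aside, 11944 genes were tested, and 8 were higher and 29 were lower in mutants at an adjusted p under 0.05 and a fold above 2 (edgeR quasi-likelihood test with Benjamini-Hochberg adjustment), which is 0.067% and 0.243% of the genes tested. Without the fold minimum 250 were higher (2.09%) and 243 were lower (2.03%), and the median size of these changes was 0.36 on the log2 scale. Of these 493 genes, 378 differed by under 1.5-fold. The groups did not overlap in 473 of the 493, against 13.2% of all genes tested. This largely follows from picking the 493 by a test on the same libraries and adds no support. Upper-quartile scaling changed the balance to 161 higher and 289 lower.

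The counts leaned on single libraries. Without mutant replicate 4, 66 genes were higher and 66 lower, and without mutant replicate 1 the counts were 81 and 70. They were 125 and 138 with wild-type replicate 1 removed, 124 and 155 with mutant replicate 3 removed, 176 and 160 without wild-type replicate 2, and 383 and 460 without wild-type replicate 4. Among genes past the fold minimum, the 29 lower genes became 9 without mutant replicate 4, 12 without mutant replicate 1, 16 without wild-type replicate 2 and 44 without wild-type replicate 4, and the 8 higher genes became 5 without wild-type replicate 1. In all 8 fits that left out a library, 60 genes stayed higher and 57 lower, 117 of the 493. Of the 144 genes examined singly, 88 lost their call without mutant replicate 4 and 84 without mutant replicate 1. *prp-31*, *metl-13*, *gid-8*, *eif-2D* and *lin-38* were among those whose call held in all 8 fits. Below, this is stated for only some of the genes that held, so its absence does not mean that a call was lost.

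**Figure D1:**
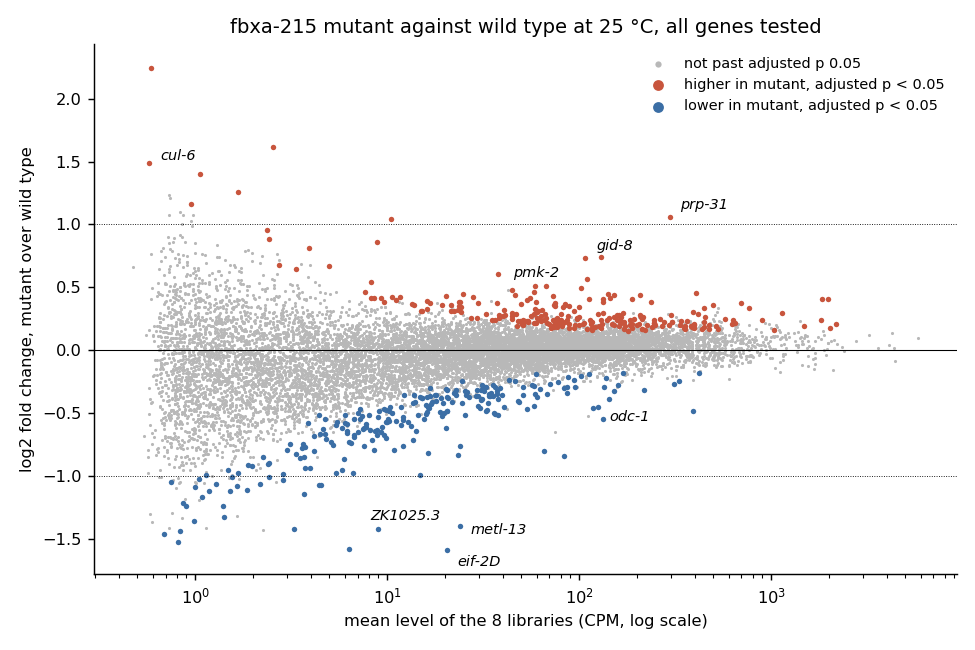
Log2 fold change (mutant over wild type) of each tested gene against its mean level in the 8 libraries (CPM, log axis), with the 250 higher genes in red, the 243 lower genes in blue and dotted lines at a 2-fold change. Higher genes lie mostly at high levels and with small changes, and lower genes reach larger changes at low levels.

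Apart from *fbxa-215*, the smallest p-value belonged to a splicing gene. *prp-31* (WBGene00022458, chromosome I), the worm counterpart of a U4/U6 spliceosome protein, was measured at 189, 188, 189.7 and 199 CPM in wild type and at 396, 383, 406 and 413 CPM in mutants. No mutant library came near a wild-type one, and the log2 fold change was 1.06 ± 0.04 (SE) with an adjusted p of 2.21e-09. None of the 8 counts of *prp-31* was whole, and the same held for other named genes, *gid-8*, *ccdc-12* and *taf-11.1* among them. Such counts can arise where the authors' quantification divided reads, which was not tested. *gid-8*, named for a subunit of a ubiquitin ligase that acts on metabolic enzymes in yeast, was at 81.3, 82.1, 77.4 and 82.6 CPM in wild type and 138, 133, 131 and 136.5 CPM in mutants (0.74 ± 0.04, adjusted p = 1.63e-07). *lin-38*, a zinc finger gene that acts with other synMuv genes against excess vulval fates, went from 86.2, 88.9, 89.7 and 89.1 CPM to 129.9, 127, 137 and 131 CPM (0.57 ± 0.04, adjusted p = 3.20e-06). Both genes had separate groups with little spread inside each. The 5 smallest p-values among higher genes were completed by *ccdc-12* (0.74 ± 0.06), whose human counterpart is found in spliceosomes, and *taf-11.1* (0.50 ± 0.05), a subunit of the general transcription factor TFIID.

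Among lower genes, *metl-13*, named for a human methyltransferase of a translation elongation factor, was at 36.2, 34.4, 32.9 and 35.1 CPM in wild type and at 13.4, 13.8, 11.4 and 13.8 CPM in mutants (-1.40 ± 0.07, adjusted p = 7.17e-08). *eif-2D*, a translation factor that brings transfer RNA to the ribosome outside the usual pathway, was at 32.9, 27.9, 31.1 and 30.7 CPM in wild type and at 9.66, 8.85, 9.88 and 12.4 CPM in mutants (-1.59 ± 0.10, adjusted p = 2.79e-07). In both genes every mutant library was far below every wild-type library. *odc-1*, ornithine decarboxylase, which opens the synthesis of polyamines, fell less, from 149, 143, 133 and 156 CPM to 109, 102, 106 and 109 CPM (-0.45 ± 0.05, adjusted p = 0.000290). At 20 °C its log2 fold change was 0.04 with an adjusted p of 0.576, and the interaction of strain and temperature passed the test (adjusted p = 0.000734). ZK1025.3 and ZK1025.2, which complete the 5 smallest p-values, are described with their neighbours.

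**Figure D2:**
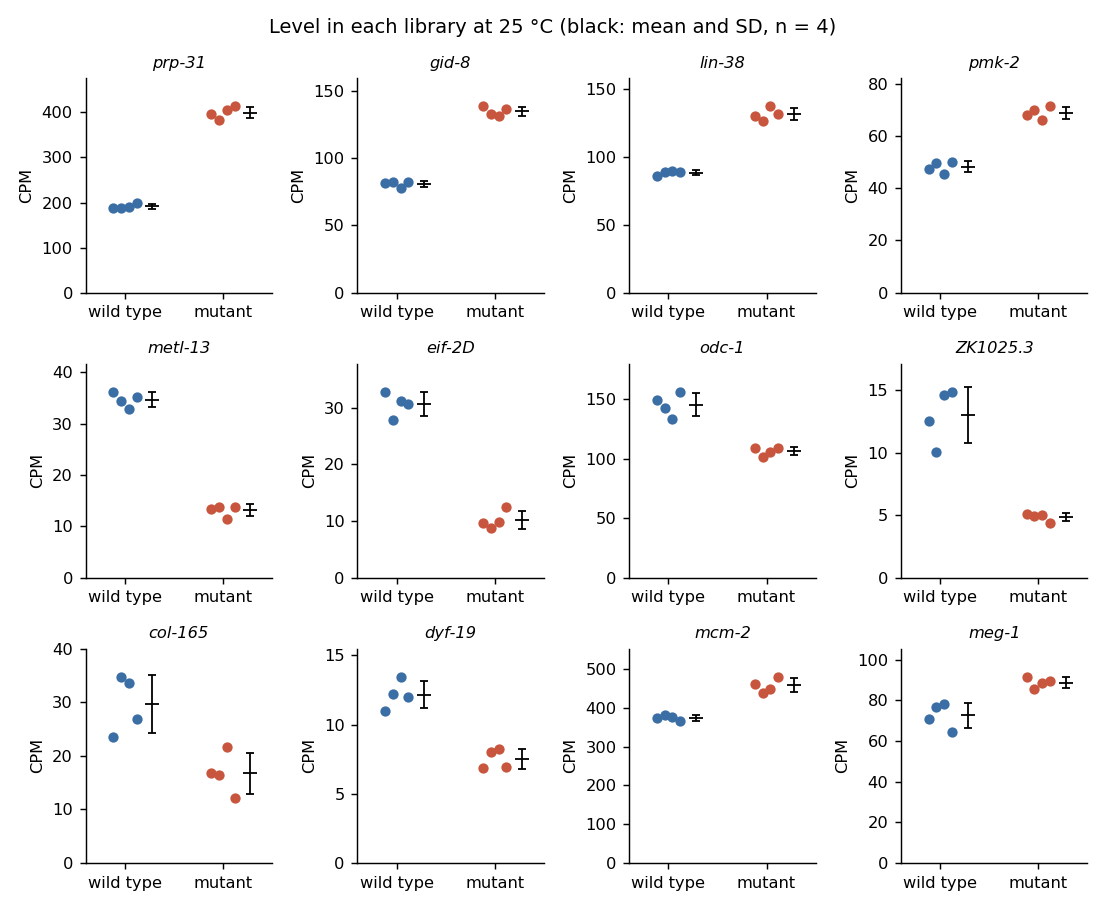
Level of 12 genes in each 25 °C library (CPM, axes from 0), wild type in blue and mutant in red, with the mean and SD of the 4 libraries in black. The groups do not overlap in any of the 12 panels, and the gap is widest relative to the spread in *prp-31*, *gid-8*, *lin-38* and *metl-13*.

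Maternal transcripts and part of the late lists shifted against each other between the strains. The stage score, an expression measure and no count of embryos, is the mean log2 CPM of lists for embryonic sheath, cuticle collagens, epidermal junctions and body wall muscle minus that of maternal transcripts. Genes of the late lists were pooled, and the 69 tested collagens were the largest list. Median log2 fold changes were -0.21 for collagens and -0.10 for muscle, but -0.02 for sheath and -0.007 for junctions. The stage score itself was compared between libraries. It was -1.248, -1.170, -1.096 and -1.175 in the wild-type libraries and -1.50, -1.38, -1.37 and -1.58 in the mutant libraries. All mutant scores were below all wild-type scores, and mutant replicates 4 and 1, the libraries whose removal lowered the gene counts most, had the lowest. With the score as a covariate, 6 of the 493 genes were still past the test: *metl-13*, *eif-2D*, *prp-31*, *gid-8*, *gcy-19* and *lin-38*. The scores of the strains did not overlap and the fit kept 5 residual degrees of freedom, so the score and the strain largely share their variation. A call lost in this fit does not show that the difference was removed: *ccdc-12* went from 0.74 to 0.67, *taf-11.1* from 0.50 to 0.45 and *odc-1* from -0.45 to -0.62, with edgeR adjusted p of 0.414, 0.501 and 0.102, and some tissue genes turned sign. The gene lists below were read beside this score. In bulk RNA, fewer cells of a type and less RNA per cell likewise cannot be told apart.

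**Figure D3:**
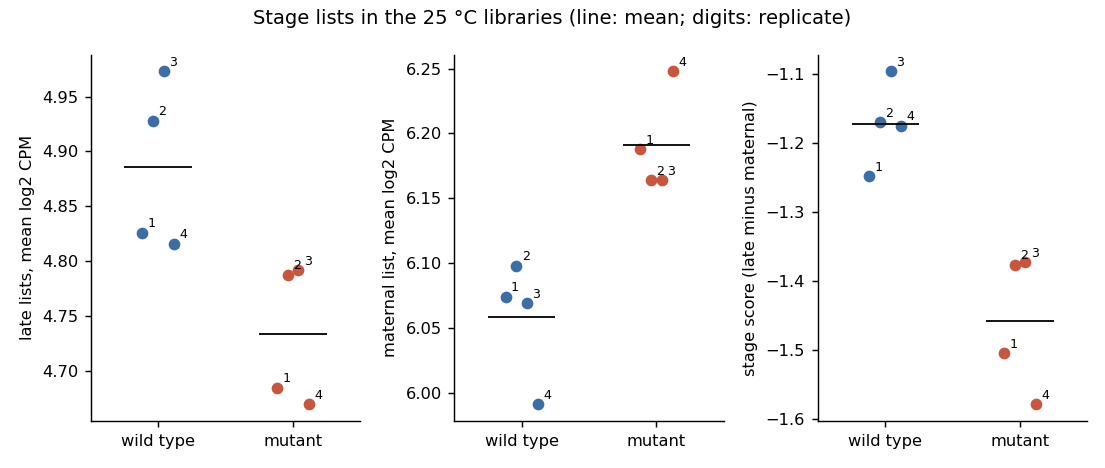
Mean log2 CPM of the late lists, of the maternal list, and their difference (the stage score) in each 25 °C library, with digits for the replicate and a line at the mean of 4. The wild-type scores lie between -1.248 and -1.096 and the mutant scores between -1.58 and -1.37.

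Maternal transcripts had a median above 0. Of 33 tested genes of this list 28 were above 0, 7 rose and none fell. The median log2 fold change was 0.13 against -0.0023 over all genes tested, of which 49.3% were above 0. Their summed level was 5627 to 5949 CPM in wild type and 6271 to 6654 CPM in mutants, without overlap. The eggshell gene *cbd-1* went from 45.4, 52.8, 48.8 and 43.5 CPM to 59.9, 62.4, 64.8 and 66.9 CPM (0.41 ± 0.06, adjusted p = 0.00250), and *puf-5*, an RNA-binding repressor of the oocyte, from 59.1, 61.2, 58.4 and 60.8 CPM to 71.1, 72.6, 73.0 and 76.5 CPM (0.29 ± 0.05, adjusted p = 0.00313). These were also the maternal genes that held in all 8 fits without a library. *mex-1*, *mex-5*, *oma-1* and *spn-4*, regulators of maternal RNA and polarity, rose by 0.17 to 0.24. Early zygotic transcripts had a median of 0.09, with 22 of 24 above 0. Of these 24, 1 rose (4.17%, against 2.09% of all tested genes), *sdz-28* (0.19 ± 0.04). The 8 genes of both lists became 2 without mutant replicate 4 and 3 without mutant replicate 1, mutant replicate 3 or wild-type replicate 1. They became 4 under upper-quartile scaling and 4 with a replicate block, where *mex-5*, *oma-1* and *spn-4* lost their calls, and 9 with DESeq2.

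Lists of the germ line and of small RNA pathways also had medians above 0. Of 92 tested genes in the P granule and the Argonaute lists, 10 rose (10.9%, against 2.09% of all tested genes) and none fell. Of the 92, 82.6% were above 0, against 49.3% of all tested genes. Without mutant replicate 4 or mutant replicate 1 the 10 became 2, without wild-type replicate 1 they became 4, without mutant replicate 3 they became 5 and without wild-type replicate 3 they became 18. *glh-4*, a Vasa-like helicase of germ granules, went from 19.5, 21.7, 21.2 and 20.1 CPM to 24.9, 27.5, 26.9 and 28.2 CPM (0.38 ± 0.07, adjusted p = 0.00797). The germ granule genes *meg-1* (0.29) and *meg-2* (0.45), the helicase gene *znfx-1* (0.41), the Argonaute gene *wago-4* (0.35) and the nuclear RNA interference gene *nrde-1* (0.26) were among the others. At 20 °C the median of the P granule list was -0.02, and *meg-1*, at -0.03, differed between temperatures (interaction adjusted p = 0.0462).

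Among cell division genes the changes were small. Of 54 tested cell cycle and replication genes 48 were above 0 (88.9%, against 49.3% of all tested genes), with a median of 0.10. By the edgeR test 11 rose (20.4%, against 2.09% of all tested genes) and none fell, and DESeq2 gave 13 higher and 1 lower. Of all tested genes with a mean of 20 CPM or more, 60.2% were above 0 and 3.35% were higher. In all 8 fits without a library 2 of the 11 held, *mcm-2* and *spd-5*. Among the 11 were *mcm-2* (0.29 ± 0.04, adjusted p = 0.00184), *mcm-6* and *mcm-3*, *mcm-4* and *mcm-5* of the helicase that opens DNA for replication, the licensing factor *cdt-1* (0.23), the centrosome scaffold *spd-5* (0.25) and the phosphatase *cdc-25.1* (0.29). *mcm-2* was at 374, 381, 376 and 365 CPM in wild type and 439 to 481 CPM in mutants, with no overlap. Of 25 genes of the DREAM and synMuv groups, which repress germline and cell cycle genes, 24 were above 0 and 3 rose (12%). These were *lin-38*, *lin-65* (0.39) and *let-418* (0.29), all 3 also in every fit without a library. Of 14 dosage compensation genes 13 were above 0, and *sdc-1* (0.17) and *sdc-3* (0.24) rose (14.3%). Both shares stand beside 2.09% of all tested genes.

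Most lists of differentiated tissues had medians below 0. In 12 tissue lists with 391 tested genes, 25 fell (6.39%, against 2.03% of all tested genes) and none rose. Of the 391, 23.8% were above 0, against 49.3% of all tested genes, and the median was -0.14. The 25 became 3 without mutant replicate 4 and 3 without mutant replicate 1, the libraries with the lowest stage scores, 16 without wild-type replicate 2 and 43 without wild-type replicate 4. With the stage score in the fit none of them was past the test, but 4 of these lists are part of the score. Medians were below 0 in 11 of the 12 lists, though close to 0 for embryonic sheath and epidermal junctions, and above 0 for factors that specify the epidermis (0.045).

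**Figure D4:**
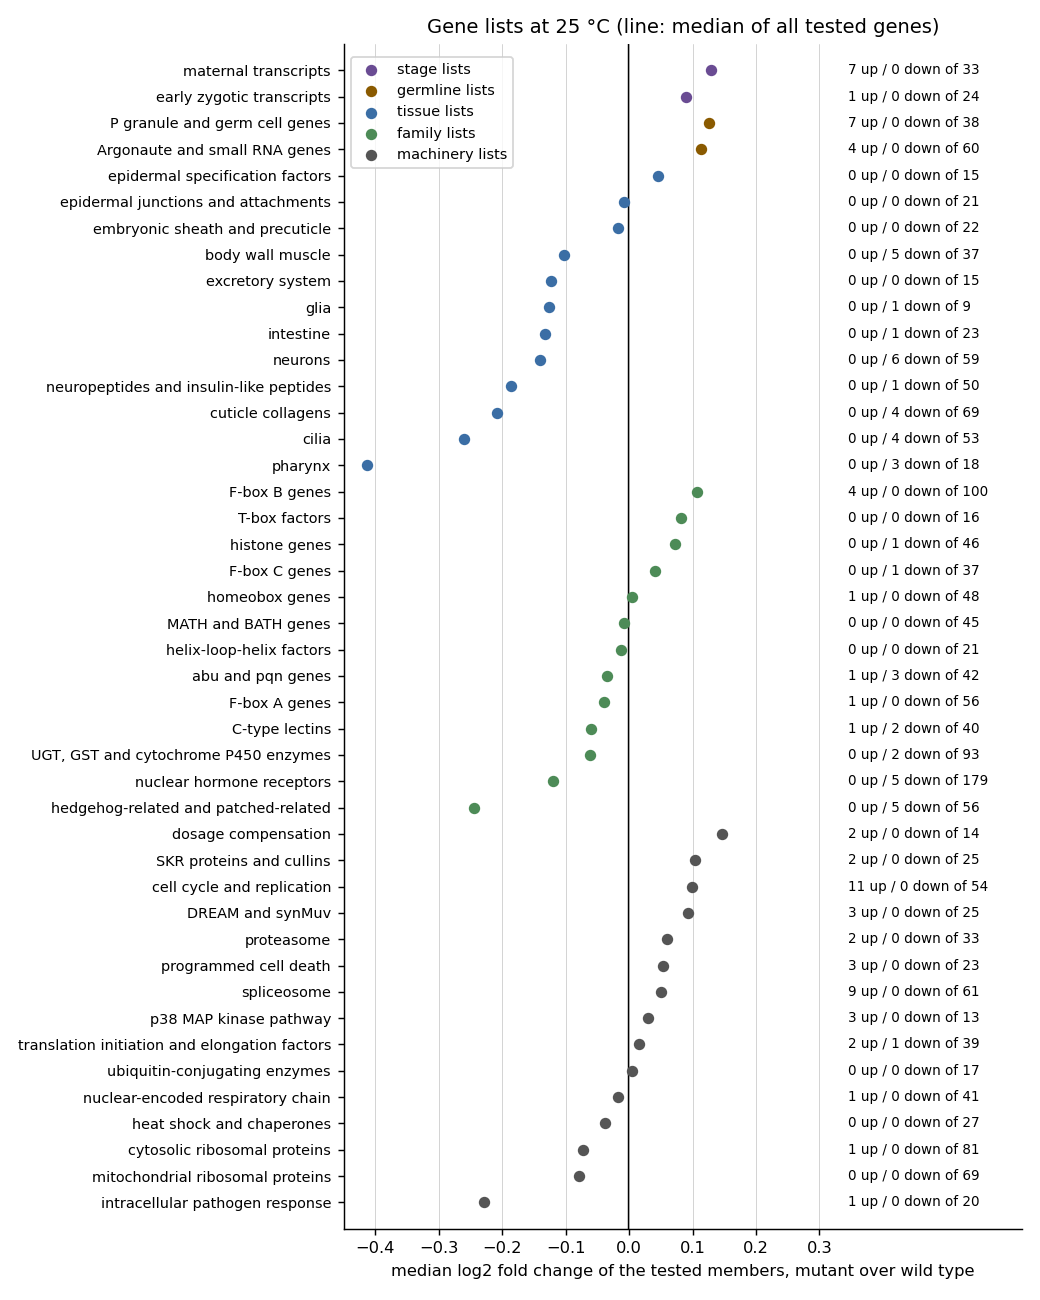
Median log2 fold change (mutant over wild type) of the tested members of each gene list, coloured by kind of list, with the number of members higher and lower at an adjusted p under 0.05 on the right. Stage and germline lists sit above the median of all tested genes (-0.0023), and tissue lists sit below it except epidermal specification factors.

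The pharynx had the lowest median, -0.41 over 18 tested genes, 17 of them below 0. The pharyngeal myosin *myo-5* went from 6.01, 9.89, 7.83 and 6.89 CPM to 4.05, 4.59, 4.71 and 3.52 CPM (-0.86 ± 0.16, adjusted p = 0.0108). The pharyngeal troponin gene *tni-4* (-0.55 ± 0.11) and the gland gene *phat-5* (-1.003 ± 0.20) fell with it. In each of these 3 genes all mutant libraries were below all wild-type libraries. At 20 °C the median of the 11 pharynx genes tested was -0.03, and 3 of them were lower.

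Of 53 tested genes of cilia, which only sensory neurons carry in the worm, 51 were below 0 and 4 fell, with a median of -0.26 at 25 °C and of -0.44 at 20 °C. *dyf-19*, a gene of the ciliary base, was at 11.01, 12.17, 13.46 and 12.02 CPM in wild type and at 6.89, 8.01, 8.21 and 6.91 CPM in mutants (-0.70 ± 0.10, adjusted p = 0.00220), and its call held in every fit without a library. *bbs-8* of the BBSome, *dyf-1* of intraflagellar transport and *mksr-2* of the transition zone fell by 0.80, 0.35 and 0.63 on the log2 scale. Of 59 other neuronal genes 48 were below 0 and 6 fell, among them the potassium channel *slo-1* (-0.40 ± 0.09), the synapse organiser *madd-4* (-0.38), the touch neuron tubulin *mec-12* (-0.33) and *sbt-1* (-0.64), a helper of neuropeptide processing. Of 50 neuropeptide and insulin-like genes 1 fell, *nlp-33* (-0.77), 2% and near the 2.03% of all tested genes that were lower. The call of *nlp-33* was lost in 8 of the alternatives. The glial list had 1 of 9, *daf-6* (-0.51), which shapes the channel of the sensory organ.

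In body wall muscle 5 of 37 tested genes fell and 30 were below 0, with a median of -0.10. All 5 encode parts of the contractile apparatus or its regulators. The troponin C gene *pat-10* went from 175, 163, 177 and 185 CPM to 133, 157.7, 148 and 138 CPM (-0.28 ± 0.06, adjusted p = 0.0146), a narrow gap without overlap. The others were the myosin light chains *mlc-3* (-0.30) and *mlc-2* (-0.28), the tropomyosin *lev-11* (-0.32) and the calponin-like *cpn-3* (-0.29), whose libraries overlapped. At 20 °C the same comparison gave a median of -0.31 with 19 of 36 genes lower, and *mlc-3* was the muscle gene named here whose effect differed between temperatures (interaction adjusted p = 0.0293).

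Cuticle collagens had a median of -0.21 over 69 tested genes, with 54 below 0 and 4 lower. *col-165* was at 23.5, 34.8, 33.6 and 26.8 CPM in wild type and at 12.1 to 21.6 CPM in mutants (-0.83 ± 0.15, adjusted p = 0.00809). *col-74*, *col-172* and *col-48* fell by 0.81, 0.84 and 0.90 on the log2 scale, and *col-165* alone of the 4 held without each library. Embryonic sheath genes (median -0.02), epidermal junctions (-0.007) and the excretory system (-0.12) had no gene past the edgeR test among 22, 21 and 15, with 6, 1 and 5 at an unadjusted p under 0.05 and with 1, 1 and 0 lower by DESeq2. In the intestine 1 of 23 fell (4.35%, against 2.03% of all tested genes), the protease *asp-1* (-0.71).

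Gene families outside the tissue lists were read by their symbols. Hedgehog-related and patched-related genes, which in the worm act largely in epidermis and cuticle, had a median of -0.24, with 48 of 56 below 0 and 5 lower. *grl-15* was at 8.197, 8.004, 7.754 and 8.503 CPM in wild type and 4.931, 5.428, 5.395 and 3.727 CPM in mutants (-0.74 ± 0.13, adjusted p = 0.00663). *grl-7* (-0.57), *wrt-1* (-0.51), *grl-16* (-0.76) and *grl-5* (-0.85) fell too. Nuclear hormone receptors, a family of ligand-regulated transcription factors expanded in the worm, had 5 lower and none higher of 179, and DESeq2 called 3. These 2.79% are near the 2.03% of all tested genes that were lower, and the median was -0.12. Transthyretin-like *ttr* genes had 3 lower of 21 (*ttr-16*, *ttr-2* and *ttr-36*), and the *unc* genes, named for uncoordinated movement, 3 lower of 90 (*unc-24*, *unc-87* and *unc-42*), 3.33% and again near 2.03%. In the other direction, 3 of 26 nuclear pore genes rose (*npp-21*, *npp-3* and *npp-8*) with 96.2% above 0, and 3 of 30 *sdz* genes (*sdz-11*, *sdz-28* and *sdz-5*), first found as early zygotic genes that depend on SKN-1.

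*npp-21*, which encodes a nuclear pore basket protein, was the family member with the largest rise among these, from 334, 364, 358 and 309 CPM to 479, 444, 466 and 485 CPM (0.46 ± 0.05, adjusted p = 0.000346). The groups were well apart. Its span overlaps *osm-8*, and since the libraries did not keep strand, reads in shared stretches cannot be told apart.

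The F-box families did not move as one. Of 56 other *fbxa* genes 1 rose (1.79%, against 2.09% of all tested genes), *fbxa-114* (0.40 ± 0.10), and the median was -0.04. Of 100 *fbxb* genes 78 were above 0 and 4 rose (4% against 2.09% of all tested genes), with a median of 0.11: *fbxb-90* (0.39), *fbxb-92* (0.38), *fbxb-48* (0.37) and *fbxb-1* (0.31). *fbxb-90* was at 23.4, 18.9, 19.1 and 21.3 CPM in wild type and at 27.7, 25.6, 26.8 and 28.1 CPM in mutants, without overlap. Calls of all 4 were lost without mutant replicate 4, and that of *fbxb-92* also with DESeq2 and limma-voom, which called 3 each. Of 37 *fbxc* genes 1 fell, *fbxc-20* (-0.24), 2.7% and near the 2.03% of all tested genes that were lower. Of 45 MATH and BATH genes, another expanded family of ubiquitin ligase adaptors, none passed the edgeR or the DESeq2 test and 6 had an unadjusted p under 0.05. Several F-box genes are near copies of one another, so reads shared between copies may have been divided in the quantification.

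Of the ligase partners, the SKR proteins and cullins, 2 of 25 rose (8%, against 2.09% of all tested genes). *cul-6*, a cullin induced with intracellular infection, was at 0.2503, 0.4555, 0.282 and 0.211 CPM in wild type and 0.946, 0.969, 0.760 and 0.745 CPM in mutants (1.49 ± 0.34, adjusted p = 0.0242). The wild-type values lay near the floor of 0.188 to 0.228 CPM that 3 counts give. The rest of the intracellular pathogen response list did not move with it. Of 20 tested genes *cul-6* alone rose and 15 were below 0, with a median of -0.23. DESeq2 called no gene of that list, *cul-6* included, and 1 of the SKR proteins and cullins. Among the other alternatives the call of *cul-6* was lost in 4, most of them fits that left out a library. *rbx-1*, the RING subunit of cullin ligases, rose by 0.16, and the proteasome subunits *pbs-5* (0.26) and *rpn-8* (0.18) were 2 of 33 (6.06%). Calls of *rbx-1* and *rpn-8* were lost in 11 and 8 of the alternatives, upper-quartile scaling and the replicate block among them. That of *pbs-5* held in every fit without a library. No gene passed the test among 17 ubiquitin-conjugating enzymes or among 27 heat shock and chaperone genes, where 2 and 7 had an unadjusted p under 0.05 and where DESeq2 gave none and 2.

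In the spliceosome list 9 of 61 genes rose and none fell, led by *prp-31*. *sftb-2*, a subunit of the branch point complex SF3b, was at 386, 384.5, 401 and 402 CPM in wild type and at 503, 487, 482 and 511 CPM in mutants (0.33 ± 0.04, adjusted p = 0.000504), and *prp-17* rose by 0.24. *prp-31*, *sftb-2* and *prp-17* held in all 8 fits without a library. Over the 15 lists of cell machinery, cell division included, 39 of 540 tested genes rose (7.22%, against 2.09% of all tested genes) and 1 fell. The 39 became 14 without mutant replicate 4, 15 without mutant replicate 1, 22 without wild-type replicate 1, 23 without mutant replicate 3 and 24 without wild-type replicate 2. The balance also depended on the setting. Upper-quartile scaling gave 25 higher and 4 lower, and all 16 libraries in 1 fit gave 43 and 16. Without wild-type replicate 3 there were 39 and 13, and without wild-type replicate 4 there were 56 and 6. Translation factors divided: *eif-2D* fell, and *eif-3.C* (0.28), a subunit of initiation factor 3, and *iff-1* (0.44), an eIF5A gene of the germ line, rose, with a median of 0.015 over 39 genes that turned to -0.011 under upper-quartile scaling.

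Ribosomal and mitochondrial genes differed little. Of 81 cytosolic ribosomal protein genes 71 were below 0 with a median of -0.07 and 1 passed the test, *rpl-11.1* (0.36 ± 0.08), whose libraries overlapped. At 20 °C 72 of the 81 were higher with a median of 0.17. None of 69 mitochondrial ribosomal protein genes and none of the 12 tested genes on mitochondrial DNA passed the edgeR or the DESeq2 test, and 12 and 3 had an unadjusted p under 0.05. Of the 69, 62 were below 0, with a median of -0.08.

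The 3 p38 MAP kinase genes of the worm, which lie side by side on chromosome IV and serve innate immunity and stress responses, rose together. *pmk-2* (8143500 to 8148648) went from 47.4, 49.9, 45.6 and 49.96 CPM to 67.9, 70.1, 66.1 and 71.4 CPM (0.51 ± 0.05, adjusted p = 6.13e-05). *pmk-3* rose by 0.34 ± 0.06 and *pmk-1* by 0.20 ± 0.04, and the calls of *pmk-2* and *pmk-3* held without each library. They were also higher at 20 °C, by 0.72, 0.47 and 0.18. The other 10 tested genes of the pathway did not pass the test. Of 23 cell death genes 3 rose: *crn-3* (0.26), a nuclease, *cep-1* (0.24), the p53 gene of the worm, and *psr-1* (0.21), a receptor for dying cells.

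The genes past the fold minimum were mostly scarce. Of these 37 genes 23 had a mean under 2 CPM, and the 29 lower ones had a median of 2.08 CPM in wild type and 0.964 CPM in mutants. Of those 29, 20 (69.0%) were under 0.5 CPM in both strains at 20 °C, against 8.41% of all tested genes, and 23 could not be tested there. In contrast, the 250 genes higher without a fold minimum had a median of 79.9 CPM in wild type and the 243 lower ones 16.9 CPM. Of 6547 genes with a mean of 20 CPM or more 219 were higher and 96 lower, and of 3549 genes between 2 and 20 CPM 26 were higher and 124 lower. In these ranges 60.2% and 35.3% of the tested genes were above 0. The direction of change thus went with level among all genes, and the gene lists were not matched for level.

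The named genes of this low range came from several families. *nhr-54*, *nhr-238* and *nhr-74* of the nuclear hormone receptors, the C-type lectin *clec-63*, the lipase-like *lips-9*, *dct-16*, *pqn-74*, *fipr-21* and *ifas-3* were lower, none of them above 5.01 CPM in any library. *clec-63* was at 1.69, 1.43, 1.41 and 1.12 CPM in wild type and 0.811, 0.582, 0.380 and 0.407 CPM in mutants (-1.36 ± 0.29, adjusted p = 0.0186). Among higher genes, the receptor guanylyl cyclase *gcy-19* was at 6.132, 8.004, 7.895 and 5.34 CPM in wild type and 11.8, 17.8, 14.6 and 12.1 CPM in mutants (1.04 ± 0.16, adjusted p = 0.00220). C55C3.3 (1.62 ± 0.22) and Y39B6A.1 (1.26 ± 0.23) rose at both temperatures, by 1.59 and 1.81 at 20 °C. H14A12.5 had the largest change among genes past the test (2.24 ± 0.42), from at most 0.325 CPM to at least 0.711 CPM, and its span overlaps *fum-1*.

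A run of neighbouring genes on chromosome I (11429014 to 11480071) held several lower genes, and was chosen after its values were seen. All 8 tested genes between *nhr-74* and *nhr-245* were below 0, and 5 passed the test. ZK1025.3 was at 12.58, 10.09, 14.6 and 14.9 CPM in wild type and 5.07, 4.91, 5.02 and 4.41 CPM in mutants (-1.42 ± 0.13, adjusted p = 4.84e-05). ZK1025.2 (-1.57 ± 0.16), *bah-1* (-1.42 ± 0.26), a gene needed for the surface to which bacterial biofilms attach, *nhr-113* (-0.99 ± 0.25) and *nhr-74* (-1.11 ± 0.28) were the others. The groups did not overlap in any of these 5, but *nhr-74* and *nhr-113* were not past the test with DESeq2 (adjusted p = 0.0569 and 0.0936) and lost their calls in 8 and 11 of the alternatives. *nhr-245* had a similar value (-1.41 ± 0.51) but overlapping libraries and an adjusted p of 0.127. *nhr-73* (-0.29 ± 0.57) and C27C7.1 (-0.17 ± 0.08) differed less, with overlapping libraries and edgeR adjusted p of 0.8016 and 0.2485. C27C7.7, the tested gene just before the run, was at 0.12 ± 0.15. At 20 °C ZK1025.2, ZK1025.3 and *bah-1* were all under 0.3 CPM in both strains.

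**Figure D5:**
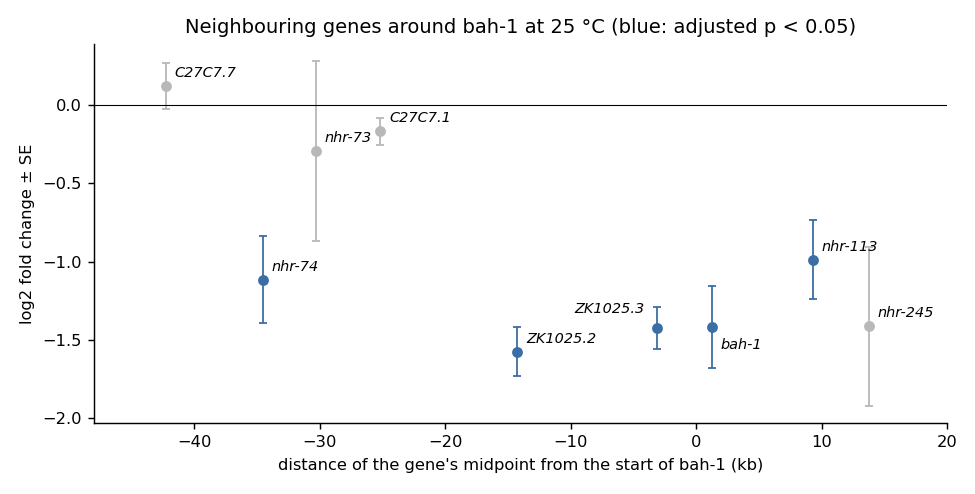
Log2 fold change with its SE for 9 neighbouring genes of chromosome I against the distance of each gene's midpoint from the start of *bah-1* (kb), in blue where the adjusted p is under 0.05. The 8 genes from *nhr-74* on lie below 0, and C27C7.7 at the left lies at 0.12.

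Changed genes were spread over the genome. Chromosome I had 59 higher and 42 lower, II 51 and 39, III 34 and 32, IV 39 and 35, V 40 and 64, and X 27 and 30. Within 1 Mb of *fbxa-215* 168 genes were tested, of which 4 were higher and 5 lower, 5.36% against 3.94% over chromosome IV. The nearest of the 9 was C08F11.13 (-0.79 ± 0.11), and *pqn-74* was the one that fell by more than 2-fold.

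The 20 °C libraries, which share no sample with those at 25 °C, allow each gene to be read a second time, though temperature, hours after plating and collection changed together. Of the 493 genes 404 could be tested at 20 °C, and 367 had the same direction there, against 6607 of the 10381 genes tested at both. For higher genes this was 91.5% of those tested at 20 °C and for lower genes 89.9%. Past the test at both temperatures were 208, of which 125 were higher and 81 lower at both. The interaction of strain and temperature passed the test for 18 of the 493 genes. The lists differed in how they carried over: cilia, muscle and neurons had medians below 0 at both temperatures. Collagens (-0.21 and 0.04), neuropeptides (-0.19 and 0.15) and maternal transcripts (0.13 and -0.05) had medians of opposite sign, a difference that was not tested for the lists. The collagen medians cover 69 genes at 25 °C and 36 at 20 °C. Of those 36, 10 were lower and 3 higher at 20 °C, so the median there hides lower genes. Embryonic sheath had 12 of 21 genes lower at 20 °C and epidermal junctions 16 of 20, with none higher. Of all 10381 genes tested at both temperatures 1009 were lower at 20 °C and 796 higher.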

How the data were processed

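Mixed-stage embryos of both strains were profiled by polyadenylated, non-directional RNA-seq read as pairs. The authors trimmed reads with Trimmomatic (v0.39), quantified transcripts with salmon (v1.5.1) and deposited estimated counts per gene, which need not be whole (30.0% of the 25 °C values were not) and were rounded here. The transcript annotation release is not given in the sources used here. The authors' comparison tables (fold changes, p-values and log2 values) were not used. Salmon can divide reads among similar genes, so near copies are uncertain.

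Of 21882 genes, 21714 were found in the Ensembl annotation of WBcel235 and 19626 in a symbol table. Genes passing filterByExpr (11945 at 25 °C) were scaled by TMM and fitted over the 8 libraries by edgeR v4.0.16 under R v4.3.3 (quasi-likelihood test), without covariates, at an adjusted p under 0.05 (Benjamini-Hochberg over all tested genes). CPM used TMM-scaled library sizes. The 20 °C libraries were fitted alike, and the interaction on all 16. A count of 0 was taken to allow 3 counts. This floor covers counting error only, whereas standard errors come from the fit over libraries.

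Named genes were *fbxa-215*, up to 30 symbol-bearing genes past the 2-fold minimum, up to 3 past the test per list and direction, up to 3 per family of 20 or more tested members, the 5 smallest p-values per direction, and up to 10 sequence-name genes past the minimum with separated libraries. Genes named beyond this rule, namely further list members past the test, neighbours and overlapping genes, and the genes of the closing observations, were chosen after their values were seen. Reads in stretches shared by overlapping genes could not be assigned to a strand, which touches *mcm-2*, *grl-15*, *tni-4*, *npp-3*, *npp-8*, *col-74* and *col-48* among others. The gene lists were chosen with earlier results of these data known. No promoter or protein sequence was analysed here.

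The alternatives tried were upper-quartile and RLE scaling, limma-voom from limma v3.58.1, DESeq2 v1.42.0, looser and stricter count filters, a fold above 1.5, all 16 libraries in 1 fit, the stage score as a covariate, a replicate block, and leaving out each library.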

Additional observations from a re-analysis of the deposited data

Results flagged for a closer look

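In 14 of 288 groups of 4 libraries examined, over the named genes and the stage score, the highest or lowest library stood apart from the other three by Dixon's criterion, which chance alone meets in about 1 of 20 groups. In wild type these were replicate 4 of *prp-31* (199 CPM against 188 to 189.7), replicate 1 of *tni-4* (10.01 CPM), replicate 2 of *prp-17* (138 CPM), replicate 4 of *psr-1* (45.5 CPM), replicate 3 of *wrt-1* (50.3 CPM) and of *abu-13* (26.5 CPM), and replicate 1 of *faah-1* (10.01 CPM). In mutants they were replicate 3 of *metl-13* (11.4 CPM), *col-48* (2.36 CPM) and *pgph-3* (95.1 CPM), replicate 4 of *bbs-8* (2.17 CPM), *dyf-1* (10.3 CPM) and *fbxb-48* (21.01 CPM), and replicate 2 of *npp-3* (370.2 CPM). In *prp-31* and *metl-13* the distance to the other strain was many times larger than that of the separate library.

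The effect of the mutation differed between 25 °C and 20 °C in 7 named genes by the edgeR interaction test. On the log2 scale, 25 °C minus 20 °C, it was 0.51 ± 0.12 (SE) for *metl-13* (adjusted p = 0.0327), which was lower in mutants at both temperatures, and -0.52 ± 0.07 for *odc-1* (adjusted p = 0.000734). It was 0.57 ± 0.13 for *mlc-3*, 0.29 ± 0.07 for *meg-1* and 1.08 ± 0.26 for *far-1*, a fatty acid and retinol binding protein that was lower at both temperatures. It was -1.71 ± 0.40 for M01G12.9 and -3.41 ± 0.76 for C46A5.4, whose span overlaps *col-14* and *klo-1*. Neither of these was abundant enough to be tested at 20 °C alone.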

How the results depend on the processing

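Of the 144 named genes, the direction was kept in every alternative run except the stage score covariate. DESeq2 kept 468 of the 493 genes past the test, limma-voom 474, RLE scaling 486 and upper-quartile scaling 404, which gave 161 higher. The counts of genes past the 2-fold minimum were 5 higher with DESeq2, 14 higher without a count filter, and 4 higher and 15 lower with at least 10 counts in every library. A fold above 1.5 gave 18 higher and 97 lower, and fitting all 16 libraries gave 476 lower without a fold minimum. With the stage score as a covariate 2 higher and 2 lower passed the 2-fold minimum, and 4 higher and 2 lower passed without it. In that fit the sign turned for *col-165* (0.0034), *col-74* (0.023), *cpn-3* (0.091), *asp-1* (0.079), *slo-1* (0.012), *wrt-1* (0.10), *abu-13* (0.26), *lev-11* (0.076), *unc-42* (0.018) and *faah-1* (-0.036), with adjusted p from 0.922 to 0.998. List medians turned for body wall muscle (0.087), intestine (0.072), neurons (0.012), cilia (0.040), glia (0.073), the excretory system (0.052), hedgehog-related genes (0.036), SKR proteins and cullins (-0.016) and F-box B genes (-0.0505). The cause was not tested. Medians under 0.02 in size turned for translation factors, homeobox genes and ubiquitin-conjugating enzymes under upper-quartile scaling and for MATH and BATH genes with DESeq2. Of the calls on named genes, 126 were lost with the stage score, 22 with the replicate block, 1 to 17 with another tool, scaling or filter, and 4 to 88 without a library. Leaving out 1 library gave 5 to 10 higher and 9 to 44 lower genes past the minimum, and 66 to 383 higher and 66 to 460 lower without it. The replicate numbers did not pair the libraries: deviations of same-numbered libraries correlated at -0.013 to 0.075. A replicate block gave 191 higher and 269 lower, and 392 of the 493 were still past. Genes under 2 CPM were limited by depth.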

Other observations

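Some groups that the lists did not cover were noticed in the values and are described without a test. Of 28 tested cuticlin genes, which encode parts of the larval and adult cuticle, 26 were below 0 and 5 fell, with a median log2 fold change of -0.19. *cut-2* was at 96.7, 118, 115 and 99.4 CPM in wild type and 51.8, 64.2, 75.7 and 48.5 CPM in mutants (-0.84 ± 0.11, edgeR adjusted p = 0.000943), and *cut-3* and *cut-6* fell by 0.76 and 0.55 on the log2 scale. The groups of *cut-2* did not overlap. In polyamine synthesis *smd-1* (-0.18 ± 0.04), the decarboxylase of S-adenosylmethionine, fell beside *odc-1*. The cyclophilins *cyn-7* (-0.49 ± 0.06) and *cyn-3* (-0.31 ± 0.05), neighbours on chromosome V, fell at both temperatures, and *cyn-17* (-0.56) fell at 25 °C, out of 16 tested cyclophilin genes with a median of -0.03.

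Among higher genes, *ari-1.3*, *ari-1.2* and *ari-1.1*, neighbouring genes on chromosome I for ubiquitin ligases of the ariadne class, rose by 0.45 ± 0.05, 0.28 ± 0.04 and 0.22 ± 0.05 at 25 °C and by 0.43, 0.32 and 0.19 at 20 °C. *ari-1.3* was at 118, 117, 116.5 and 127 CPM in wild type and 170.2, 162, 154 and 166 CPM in mutants. The other 2 tested ariadne genes were also above 0. Of the 6 subunits of the MCM helicase 5 rose, and all 9 importin and exportin genes tested were above 0, of which 2 rose. *hrpa-1*, an abundant RNA-binding protein, went from 1605, 1564, 1542 and 1607 CPM to 2088, 2038, 2125 and 2150.0 CPM (0.41 ± 0.04), and the topoisomerase *top-2* rose by the same amount.

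Changed genes had a neighbour changed the same way more frequently than tested genes at large, though most had none. Of the 250 higher genes 18.4% had another higher gene within 10 kb, against 7.84% of all tested genes, and of 242 placed lower genes 11.6% had a lower one, against 6.39%. Besides the *pmk* and *ari-1* genes, *fbxb-92*, *fbxb-90* and *sdz-11* lay together on chromosome II and *meg-1* and *meg-2* on the X chromosome.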
